A study of Mus musculus with 5 samples.

Results

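The clustered protocadherin genes were described here in mouse DP thymocytes, the immature T cells of the thymus that carry both CD4 and CD8. Members were the protein-coding genes on chromosome 18 whose symbols begin with Pcdha, Pcdhb, Pcdhga, Pcdhgb or Pcdhgc followed by a digit or the letter c. In the mm9 genome with the GENCODE vM1 annotation this gave 24 of 22372 protein-coding genes. They comprised 2 alpha genes (Pcdha11 and Pcdha3), 21 beta genes (Pcdhb1 to Pcdhb19, Pcdhb21 and Pcdhb22) and 1 gamma gene (Pcdhgc5). Pcdhb20 is a pseudogene in this annotation and was not a member. The region studied ran from 10 kb before the first to 10 kb after the last member, over chromosome 18 from 37079939 to 38011527 (931.6 kb).

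The study asked where Cxxc1 (CXXC finger protein 1) binds in DP thymocytes and where H3K4me3, a histone mark of promoters, is placed when Cxxc1 is missing. Cxxc1 binds unmethylated CpG and belongs to the Setd1 complexes that write H3K4me3. ChIP-seq, the sequencing of DNA that an antibody pulls down with its chromatin, yielded lists of enriched 200-bp windows in 3 libraries, from H3K4me3 in WT cells, H3K4me3 in Cxxc1-deficient cells and Cxxc1 in WT cells. The Cxxc1 ChIP of Cxxc1-deficient cells and the WT input, which complete the 5 samples, were not analysed here. WT mice carried floxed Cxxc1 alleles (Cxxc1 fl/fl) without Cre, and Cxxc1-deficient mice were Cxxc1 fl/fl hCD2 Cre, per the study's methods, which give an age of a few weeks for mice in general. hCD2 Cre is driven by human CD2 control sequences from early thymocyte stages on, and it also acts in other immune cells. The titles of the Cxxc1-deficient libraries name a knockout and their genotype labels read Cxxc1+/-, and the titles were followed. The Cxxc1 list names no genotype, and its place in WT rests on the study's methods. The number of mice behind each library is not given in the sources used here.

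Clustered protocadherins are cell-surface adhesion proteins best known from neurons, where each cell uses a few of them and so gains an identity of its own. In the alpha and gamma groups each variable exon has its own promoter and is spliced to shared exons at the end of the group, whereas beta genes are each a stand-alone exon. Promoter choice involves CTCF and cohesin, which hold chromatin loops, and unused promoters are kept silent by DNA methylation and heterochromatin.

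The deposited values are RPM, tags per 1000000 mapped tags. From the decimals that occur, 1 tag was worth 0.1056 to 0.1057 RPM in WT H3K4me3, 0.1058 to 0.1059 RPM in Cxxc1-deficient H3K4me3 and 0.1097 to 0.1099 RPM in Cxxc1. This places the depth of the libraries between 9.099 and 9.47 M tags. A peak was a run of windows with no gap of more than 2 windows, and the lowest autosomal peak held 10 tags in every list. A place outside the lists has an unknown level below the calling threshold, not a level of 0. The lists also lack places of known activity: of the 13 DP thymocyte markers found in the annotation, 6 had a WT H3K4me3 window at the promoter, among them Cd8a, Lck, Zap70 and Satb1, whereas Cd4, Cd3d and Rag2 had none. The 4 B cell, 4 myeloid, 4 thymic epithelium and 5 neuron markers in the annotation had no listed promoter in any library. Each group has 1 library, so the genotypes were set side by side without replicates and without a test.

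No annotated promoter of a clustered protocadherin gene was listed. A promoter counted as listed when at least 1 window lay no more than 1 kb from a start of transcription (TSS) of the gene. In WT H3K4me3 this held for 0 of 24 members, against 31.1% of all protein-coding genes. In Cxxc1-deficient H3K4me3 it held for 0 of 24 members, against 5.86% of all genes, and in Cxxc1 for 0 of 24, against 1.96%. In both latter lists the share among all genes was itself close to 0, and the member counts there are not read as a result about these genes. The members lie side by side and resemble each other in sequence, so they are not independent of each other.

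**Figure D1:**
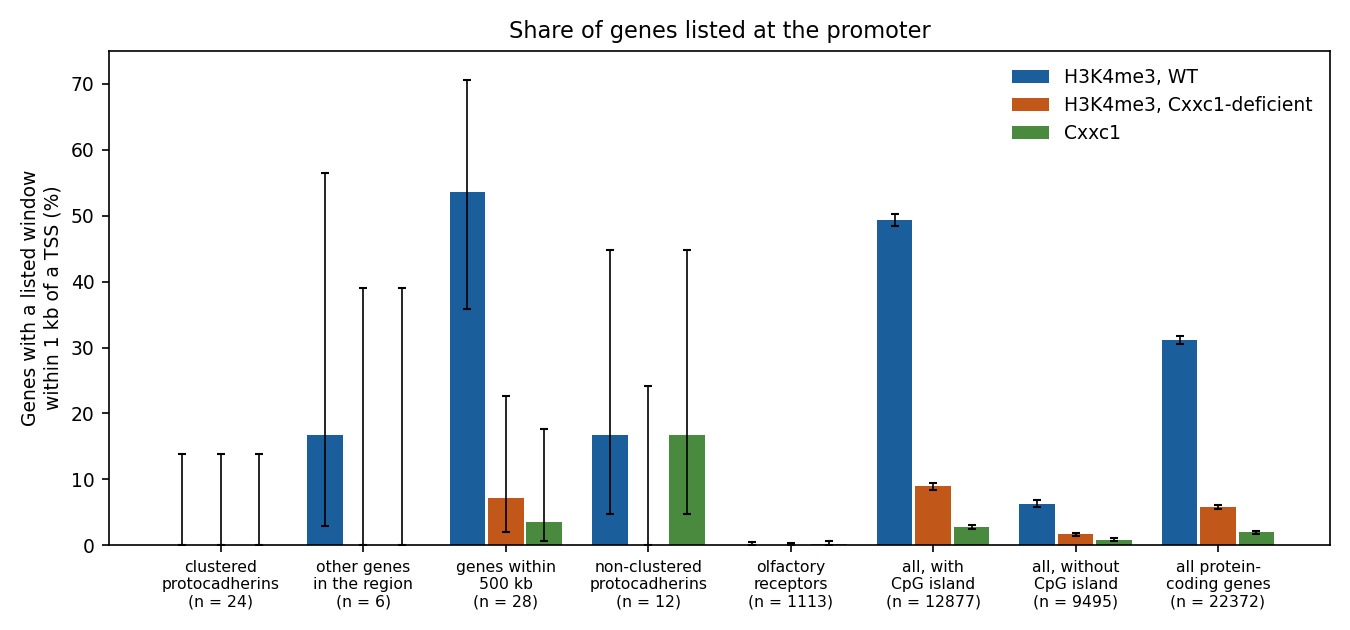
Percent of genes with a listed window within 1 kb of a TSS (vertical axis) in 8 groups of genes, for H3K4me3 in WT, H3K4me3 in Cxxc1-deficient cells and Cxxc1, 1 library each. Bars are shares, starting at 0, and error bars are 95% Wilson intervals over genes, which cover counting error only. The bars of the 24 clustered protocadherins are at 0, whereas the WT bar of the 28 genes within 500 kb reaches 53.6%.

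The members were then compared with genes of like CpG content, since listed promoters were mostly CpG rich. CpG islands were searched in 1 kb on each side of a TSS and in a further 500 bp beyond on each side. A gene was counted as having an island where some 500-bp stretch there reached 55% GC and a CpG ratio of 0.65. This observed to expected ratio is the CpG number over that predicted from the C and G content. Among all genes with an island, 49.4% were listed in WT H3K4me3, 8.95% in Cxxc1-deficient H3K4me3 and 2.77% in Cxxc1. Among genes without an island these shares were 6.34%, 1.67% and 0.853%. Of the members, 4 had an island (Pcdha11, Pcdha3, Pcdhb1 and Pcdhgc5) and 20, all of the beta group, had none. The 20 beta genes without an island thus fell in a class in which few promoters were listed in any library. For the 4 members with an island the WT count was 0 of 4.

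The groups differed in the sequence around their 46 annotated TSSs. Most alpha TSSs are the first base of a long open reading frame, described below, and that at 37099869 lies inside one. Much of the sequence within 1 kb of them is thus coding, whereas most beta TSSs lie before their frame. The values describe annotated starts, and whether these are the true promoters was not tested. All 11 alpha TSSs lay at an island, and their observed to expected CpG ratio had a median of 0.62 (0.52 to 0.703). Of the 25 beta TSSs, 1 lay at an island, that of Pcdhb1, and the median ratio was 0.342 (0.138 to 0.481). The lowest value belonged to Pcdhb9. Of the 10 gamma TSSs, 8 lay at an island, with a median ratio of 0.499 (0.252 to 0.835). Over the TSSs of all protein-coding genes the median was 0.461 and 55.1% lay at an island. Over the TSSs listed in WT H3K4me3 the median was 0.644 and 89.2% lay at an island. In this ratio the alpha median was thus close to that of TSSs listed in WT, and the beta median was below that of all genes. In GC content the order of the groups was another: the medians were 42.4% for alpha, 42.1% for beta and 46.6% for gamma, all below the 51.6% of all TSSs. The TSSs listed in WT had a GC median of 55.9%, so in GC content alpha was not close to them.

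A short sequence shared by many clustered protocadherin promoters has CGCT at its core. The letters CGCT were searched on both strands in the 300 bp before each TSS and were present at 44 of 46 member TSSs (95.7%), at all 11 alpha, 24 of 25 beta and 9 of 10 gamma TSSs. The same 4 letters were present at 66.7% of the TSSs of all protein-coding genes and at 87.5% of those listed in WT. A match is a description of the letters only. Where a TSS is the first base of a reading frame, as for most alpha TSSs, the 300 bp are those before the coding sequence. CGCT holds a CpG, so the count can move with CpG content. The CpG-poor beta TSSs carried it at 96.0%, above the share of all TSSs. No share was computed for TSSs of like CpG content, and the beta TSSs are not independent of each other. The difference was not tested.

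Unique mapping also bears on the lists, because only uniquely mapped 50-base reads were used and the members resemble each other. Within 1 kb of the member TSSs, between 87.2% and 100% of the 50-base stretches occurred once in the genome, with a median of 97.7%. At 37 of 46 TSSs the share was at least 90% and at 21 it was complete. The alpha median was 92.2% and the beta and gamma medians were both 100%. Over all protein-coding genes, 39.3% of fully unique TSSs, 25.1% of those at 90 to under 100% and 5.78% of those at 50 to under 90% were listed in WT H3K4me3. Of the member TSSs, 21, 16 and 9 fell in these classes. The 18 members whose every TSS reached 90% were also unlisted in all 3 libraries, which had to be so because no member was listed. Pcdha11, which holds most alpha TSSs, was not among the 18, as its lowest share was 88.1%. The effect of unique mapping on the member counts was not tested.

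**Figure D2:**
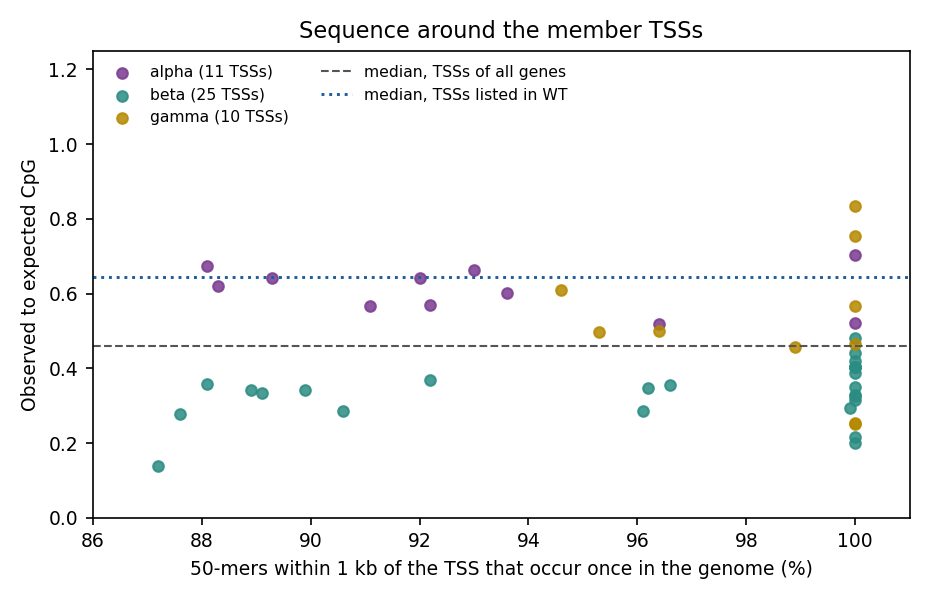
Observed to expected CpG within 1 kb of each of the 46 member TSSs (vertical axis) against the percent of 50-mers there that occur once in the genome (horizontal axis, starting at 86%). Points are TSSs coloured by group, the dashed line is the median of all protein-coding TSSs (0.461) and the dotted line that of TSSs listed in WT H3K4me3 (0.644). Alpha points lie above the dashed line, and all but 1 of the beta points lie below it.

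The annotation merges many protocadherins: Pcdha11 holds 10 of the 11 alpha TSSs and Pcdhgc5 all 10 gamma TSSs, whereas RefSeq names 14 Pcdha, 22 Pcdhb and 22 Pcdhg genes on a later assembly. All 24 member symbols are among these 58. The symbols Pcdhac1, Pcdhac2, Pcdhgc3 and Pcdhgc4 are not separate genes here. Candidate coding exons were therefore also located by sequence, as open reading frames of at least 1800 bp from a start to a stop codon. This gave 61 frames on the plus strand within the groups, 14 alpha, 25 beta and 22 gamma. In beta, 22 frames had an annotated start, as many as the RefSeq Pcdhb genes, and 3 had none. Whether those 3 are protocadherin exons was not tested, and the counts of 25 and 61 include them. An annotated TSS lay at the start or within 1 kb before it in 41 frames, and in the remaining 20 it did not. In most annotated alpha frames the TSS was the first base of the frame itself. The median frame length was 2425 bp in alpha, 2400 bp in beta and 2446 bp in gamma. A further 3846-bp frame between the groups and 3 frames on the minus strand were not counted, and at most 26.8% of their sequence was unique.

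The frames repeated the picture of the TSSs with 1 exception. No alpha or beta frame held a listed window in any library. Of the 22 gamma frames, 1 held WT H3K4me3 windows, and none held a window of Cxxc1-deficient H3K4me3 or of Cxxc1. A CpG island lay within 14 of 14 alpha, 9 of 25 beta and 15 of 22 gamma frames, and the median observed to expected CpG ratios were 0.661, 0.438 and 0.536. Uniqueness had medians of 85.4%, 92.2% and 99.2%. In 3 beta frames, none of which has an annotated start, at most 6.1% of the sequence was unique, so reads from there could hardly be placed.

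Across the whole region WT H3K4me3 had 3 peaks with 18 windows and a sum of 6.4 RPM, which is 64 tags (95% Poisson interval 49.3 to 81.7, counting error only). Cxxc1-deficient H3K4me3 and Cxxc1 had no window anywhere in the 931.6 kb. WT windows covered 0.386% of the bases of the region, 0.49% of chromosome 18 and 0.798% of the autosomes. Of chromosome 18, Cxxc1-deficient H3K4me3 windows covered only 0.119% and Cxxc1 windows 0.139%. Windows of these lists were thus sparse on the whole chromosome, and their absence from the region is not read as a result about it. From the first alpha to the last beta member, over 591.1 kb, nothing was listed in any library. All of the WT signal lay between the end of the beta group and the end of the gamma group.

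**Figure D3:**
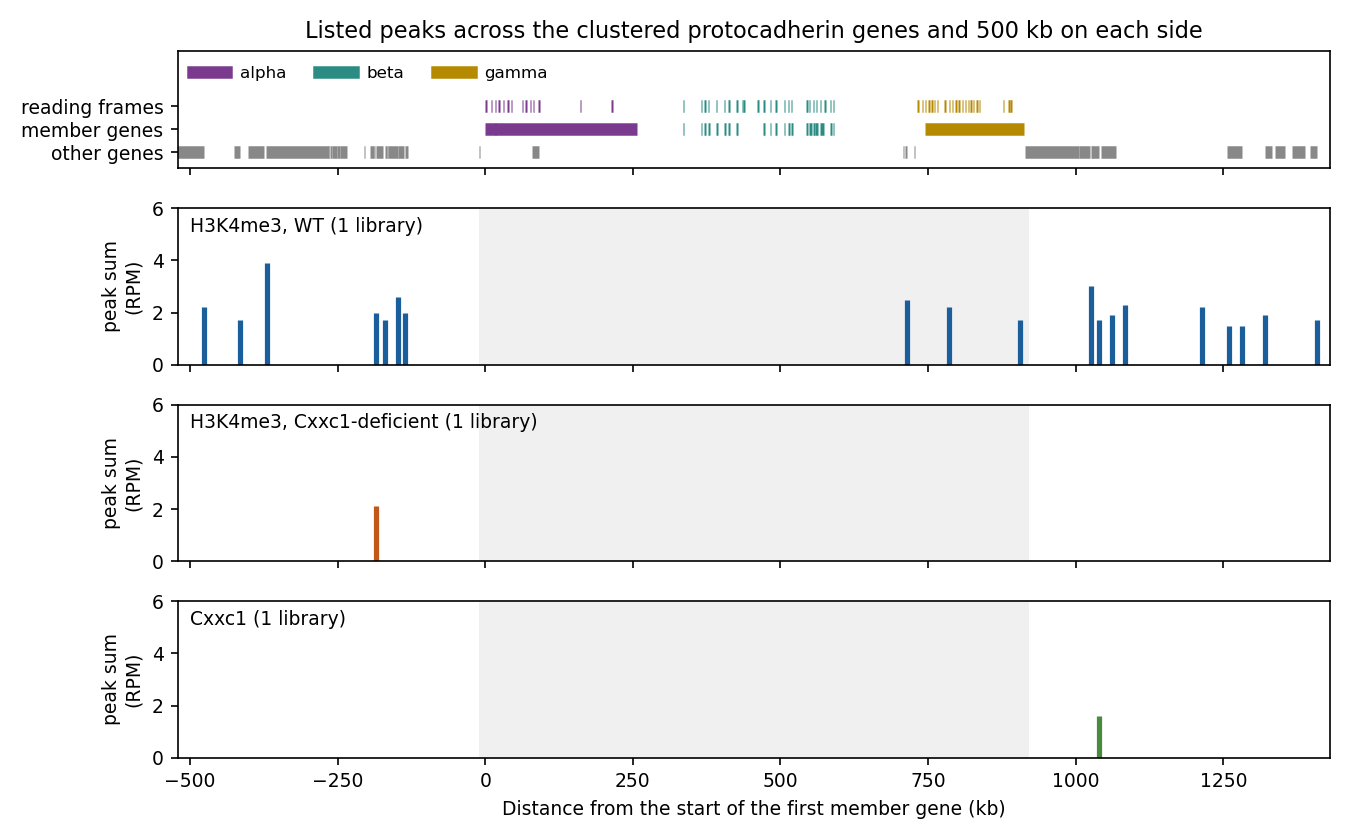
Peaks of the 3 lists across the cluster (shaded, with 10 kb on each side) and 500 kb on each side. The horizontal axis is the distance from the start of the first member in kb, bar heights are the summed RPM of a peak, and the top panel shows reading frames and member genes by group and the other protein-coding genes. The WT panel has 3 bars in the shaded part, all to the right of the beta group, and the panels of Cxxc1-deficient H3K4me3 and Cxxc1 have none there.

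The first WT peak in the region belonged to Taf7, a general transcription factor subunit whose gene lies between the beta and gamma groups on the minus strand (chromosome 18, 37800556 to 37803858). It ran from 37803001 to 37804400 over the Taf7 start and summed to 2.5 RPM, or 25 tags (16.2 to 36.9). Its windows had 0.4, 0.5, 0.5, 0.5, 0.3 and 0.3 RPM. Its edge lay 29.59 kb from the nearest protocadherin TSS. Of the 6 other protein-coding genes in the region, Taf7 alone was listed in WT, and Gm6756, Gm10545, Slc25a2, 3222401L13Rik and Diap1 were listed in no library. Diap1 runs from 38003255 to 38095130, past the end of the region, so only part of it lies inside. Slc25a2 encodes a mitochondrial ornithine carrier and Diap1 a formin that builds actin filaments.

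The second WT peak ran from 37874801 to 37876600 within Pcdhgc5 and summed to 2.2 RPM, or 22 tags (13.8 to 33.3). Its windows had 0.4, 0.2, 0.3, 0.4, 0.2, 0.2 and 0.5 RPM, in 2 blocks with unlisted windows between them. It lay wholly within a gamma reading frame of 2442 bp (37874596 to 37877037) that has no annotated start and is left unnamed here. The peak began just after the start of the frame, and 3 of its 7 windows lay within 1 kb of that start. By the same distance rule as for annotated genes, this frame start was listed in WT. The nearest annotated TSS was 8.76 kb away. The frame had 64 CpGs, an observed to expected ratio of 0.398 and 51.4% GC, and held no CpG island. By this ratio it ranked 19 of the 22 gamma frames and 48 of all 61, so the frame with the peak was among the CpG-poorer ones. Its sequence was 100% unique.

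The third WT peak ran from 37995001 to 37996200 and summed to 1.7 RPM, or 17 tags (9.9 to 27.2). Its windows had 0.5, 0.2, 0.4, 0.3 and 0.3 RPM. It lay in the intron between the last 2 shared exons of Pcdhgc5, which start at 37992919 and 37999557 and are used by all 10 annotated transcripts. The nearest TSS was 15.69 kb away. Pcdhgc5 was thus the only member with listed windows in its body, 12 in WT. Over all protein-coding genes, 6.83% had WT windows in the body and none at a TSS, against 1 of 24 members. The shares were 3.65% in Cxxc1-deficient H3K4me3 and 7.53% in Cxxc1, against 0 of 24 members in each.

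**Figure D4:**
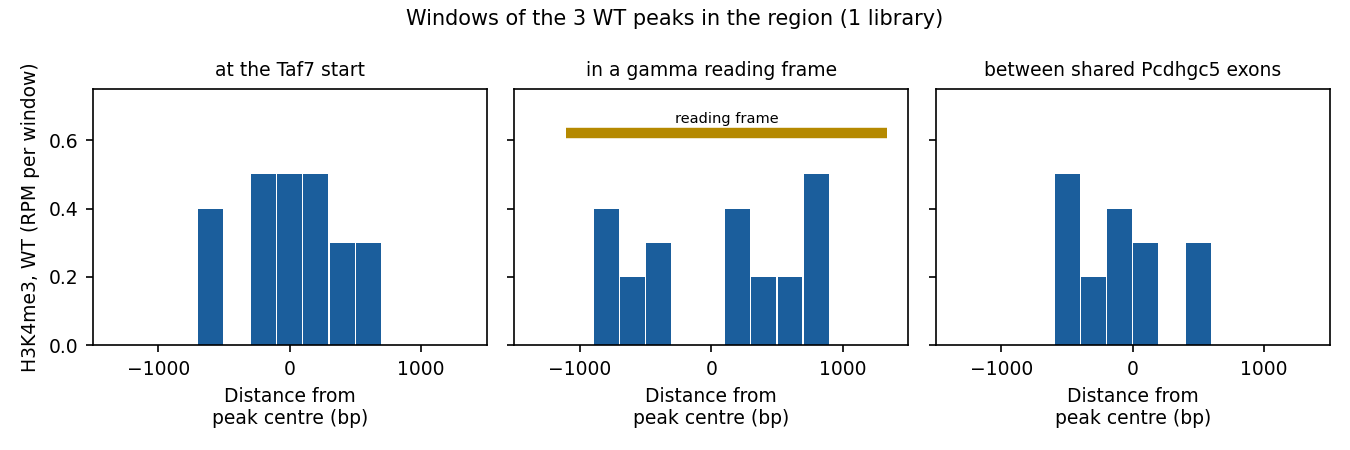
RPM of each listed window (bars, from 0) in the 3 WT H3K4me3 peaks of the region against the distance from the centre of the peak in bp, 1 library. The horizontal bar in the middle panel is the gamma reading frame. No window exceeds 0.5 RPM, and the peak in the frame has its windows in 2 blocks.

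The 3 peaks were of ordinary or low strength. In the WT list 58.4% of peaks were weaker than the Taf7 peak, 44.0% were weaker than the peak in the gamma frame and 12.5% were weaker than the intronic peak, and the median WT peak had 2.3 RPM. None of the 3 was overlapped by a peak of either other list. Among all WT peaks, 8.17% were overlapped by a Cxxc1-deficient H3K4me3 peak and 1.93% by a Cxxc1 peak. Among the 7086 WT peaks of 1.7 to 2.5 RPM these shares were 6.11% and 1.78%. Peaks away from starts were also common in this list, with 54.2% of WT peaks having no base within 1 kb of a protein-coding TSS.

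The stretch without WT H3K4me3 around the members was rich in genes. It ran from the end of the peak at Zmat2 to the Taf7 peak, 848.8 kb with 26 protein-coding genes, 23 of them members. By number of genes it was first of the 343 peak-free stretches of chromosome 18 and 42nd of 14174 on the autosomes. By length it was only 22nd on chromosome 18 and 602nd on the autosomes. Of its 26 genes 4 had a CpG island, and of all genes without an island only 6.34% were listed in WT. The stretches with the most genes held other clustered families, led on chromosomes 2 and 7 by olfactory receptors. In Cxxc1-deficient H3K4me3 the stretch around the members was 2246.4 kb with 49 genes, and in Cxxc1 it was 1620.8 kb with 50 genes.

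The genes on either side of the cluster were listed more often in WT H3K4me3. Of the 28 protein-coding genes within 500 kb of the region, 15 had a WT H3K4me3 window at the promoter (53.6%), 2 a Cxxc1-deficient one (Ndufa2 and Ik, which share a promoter) and 1 a Cxxc1 one (Fchsd1). Over all protein-coding genes the shares were 31.1%, 5.86% and 1.96%. The latter 2 counts are near these shares and are not read as a result. Genes with a CpG island reached 49.4% in WT, and the island class of the neighbours was not set apart. Before the cluster, the nearest WT peak lay at Zmat2, 135.7 kb from the first member, with 2.0 RPM, and a peak of 2.6 RPM lay at the shared start of Hars and Hars2, which encode histidyl-tRNA synthetases. Wdr55 had 1.7 RPM in WT, and Dnd1 was unlisted. After the cluster, the nearest WT peak covered the starts of Hdac3, a histone deacetylase, and Rell2, 112.9 kb from the last member, with 3.0 RPM. Fchsd1 had 1.7 RPM in WT H3K4me3 and 1.6 RPM in Cxxc1. The Arap3 promoter was unlisted, with a WT peak of 1.9 RPM inside the gene, and Pcdh1 had a WT peak of 1.5 RPM at its start.

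At the Ndufa2 and Ik promoter the WT and Cxxc1-deficient peaks had 2.0 and 2.1 RPM, or 20 tags (12.2 to 30.9) and 21 tags (13.0 to 32.1). The intervals cover counting error only, and the 2 libraries are given side by side without a test. The Hdac3, Zmat2 and Hars2 peaks had no counterpart in the Cxxc1-deficient list. The protocadherin region, with its 3 WT peaks and no Cxxc1-deficient one, thus lay beside genes of which 15 were listed in WT and 2 in Cxxc1-deficient cells.

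The non-clustered protocadherins, which lie singly on several chromosomes, included the nearest relatives with a listed promoter. Of these 12 genes, 2 were listed in WT H3K4me3 (Pcdh1 and Pcdh7), 0 in Cxxc1-deficient H3K4me3 and 2 in Cxxc1 (Pcdh7 and Pcdh10), against 31.1%, 5.86% and 1.96% of all protein-coding genes. The WT share was 16.7%, with a Wilson interval over genes of 4.7% to 44.8%. This interval includes the 31.1% of all genes, so the lower WT share is not read as a result. Pcdh7 had a WT H3K4me3 peak over its start (chromosome 5, 58108401 to 58110200) of 2.8 RPM, or 28 tags (18.6 to 40.5). A second WT peak of 2.0 RPM followed at 58111001 to 58113000. The Cxxc1 peak at Pcdh7 (58108001 to 58108800) had 1.6 RPM, or 16 tags, and overlapped the first WT peak. Pcdh10 had a Cxxc1 peak of 2.2 RPM, or 22 tags (13.8 to 33.3), on chromosome 3 from 45183201 to 45184600, 881 bp after its start, and no listed H3K4me3. Only 0.4 RPM of this peak counted as within 1 kb of the start, so the listing of Pcdh10 rests on its edge.

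The sequence just before the annotated starts of the 2 genes with a Cxxc1 peak is printed from RefSeq, matched to mm9 by exact identity, on the plus strand and with each CpG, the dinucleotide that Cxxc1 recognises when unmethylated, in capitals. Pcdh7 is shown for chr5:58109070-58109259, all 190 bases of which lie in its first WT H3K4me3 peak, and Pcdh10 for chr3:45182070-45182319, 250 bases that no listed window covers. Neither stretch lies in a Cxxc1 peak: at Pcdh7 the Cxxc1 peak ends 460 bp before the annotated start, and at Pcdh10 it begins 881 bp after it.
Pcdh7: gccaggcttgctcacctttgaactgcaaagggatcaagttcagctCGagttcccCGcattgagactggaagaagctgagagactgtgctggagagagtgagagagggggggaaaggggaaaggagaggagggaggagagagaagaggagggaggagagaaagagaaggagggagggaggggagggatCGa
Pcdh10: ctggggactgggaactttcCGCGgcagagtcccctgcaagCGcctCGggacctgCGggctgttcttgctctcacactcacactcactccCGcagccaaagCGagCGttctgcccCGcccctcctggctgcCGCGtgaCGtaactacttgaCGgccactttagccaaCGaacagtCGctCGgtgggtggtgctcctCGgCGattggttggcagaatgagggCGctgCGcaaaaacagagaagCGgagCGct
The Pcdh7 stretch had 3 CpGs and 56.8% GC, and the Pcdh10 stretch 22 CpGs and 63.2% GC. The CpG-richer of the stretches was the one without H3K4me3 in the WT list.

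Olfactory receptor genes are another large family in clusters, and their promoters were also rarely listed. Of 1113 genes, 1 was listed in WT H3K4me3 (0.0898%), 0 in Cxxc1-deficient H3K4me3 and 2 in Cxxc1 (0.18%).

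The genes that shape or silence the protocadherin clusters were looked at as a list of 20 symbols, of which 19 were found. In WT H3K4me3 10 of 19 were listed, in Cxxc1-deficient H3K4me3 5 and in Cxxc1 1, against 31.1%, 5.86% and 1.96% of all protein-coding genes. Among genes with a CpG island the WT share was 49.4%, and the island class of the 19 genes was not counted. The RPM values in this list and the next are sums over windows within 1 kb of any TSS of a gene. They may join separate promoters, and the 3 libraries may refer to different starts. Dnmt3a, a DNA methyltransferase that sets new methylation, had 7.6 RPM in WT H3K4me3, 1.7 RPM in Cxxc1-deficient H3K4me3 and 2.0 RPM in Cxxc1. It was the only gene of the list in all 3. Trim28, a corepressor recruited by zinc finger proteins, had 4.9 RPM in WT H3K4me3 and 2.2 RPM without Cxxc1. Dnmt3b had 2.7 and 1.2 RPM, and the cohesin subunit gene Rad21 had 1.8 and 1.9 RPM. Wiz (4.4 RPM), Rest (3.8 RPM), Stag1 (3.5 RPM), Dnmt1 (2.9 RPM), Nipbl (2.3 RPM) and Ehmt2 (2.2 RPM) were listed in WT only, and Wapal, the cohesin release factor gene, in Cxxc1-deficient H3K4me3 only, with 2.2 RPM. Ctcf, Smc3, Setdb1 and Smchd1 were listed in no library.

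Of 15 genes for partners and processing of protocadherins, 11 were listed in WT H3K4me3, 1 in Cxxc1-deficient H3K4me3 and 0 in Cxxc1, beside the same shares of all genes. Those listed in WT included the kinase genes Ptk2 (3.1 RPM) and Ptk2b (2.1 RPM), the sheddase gene Adam10 (2.6 RPM), the gamma-secretase subunit gene Ncstn (1.7 RPM), and Cyfip2 (3.6 RPM) and Nckap1 (2.5 RPM) of the WAVE complex, which drives actin branching. Psen2 was listed in Cxxc1-deficient H3K4me3 only, with 2.5 RPM. Ret and Wasf1 were unlisted. The 11 of 15 partner genes listed in WT stand beside 31.1% of all genes, 49.4% of genes with a CpG island and 0 of 24 protocadherins. Of the protocadherins, 20 had no island. The island class of the partner genes was not counted, so the difference is not read as a result about them.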

How the data were processed

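ChIP-seq of DP thymocytes was analysed from 3 files, 1 library each. Per the study's methods and the submitters' processing notes (CASAVA 1.8.2, SICER 1.1, mm9), uniquely mapped 50-base reads entered SICER with input and Cxxc1-deficient ChIP as controls. The aligner, the handling of duplicates and the control used for each H3K4me3 list are not given in the sources used here. All of these bear on which windows were called. The authors deposited RPM values, rounded to 1 decimal, for 200-bp windows inside called islands only.

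Here, windows were joined into a peak across gaps of up to 2 missing windows. Tags per window were the RPM divided by the value of 1 tag, rounded, with exact 95% Poisson intervals. In the Cxxc1-deficient H3K4me3 list 2 decimals did not follow from any value of 1 tag. Genes and TSSs were those of protein-coding transcripts in GENCODE vM1, which annotates NCBIM37, the assembly of mm9. RefSeq names and sequences came from a later assembly, GRCm38.p6, and none of its coordinates were used. Uniqueness was the share of 50-mers that occur once on both strands. Python 3.11.15, numpy 2.4.6, pandas 2.3.3, scipy 1.17.1 and numba 0.67.0 were used, and the functions were tested on simulated data. Genes named were those in or next to the region, non-clustered protocadherins with a window, and examples from the lists, and a further listed gene is not reported here by name. Members and lists were chosen with earlier results of these data known. The search for reading frames was added after seeing the annotation and the lists.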

Additional observations from a re-analysis of the deposited data

How the results depend on the processing

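The 4 kinds of result were recomputed in each of the 3 lists, as 63 values, of which 44 stayed close to the reported value (counts within 1.5 times it, shares within its 95% Wilson interval) and 19 did not. The count of members listed was 0 in 23 of 24 alternatives: within 500 bp, 2 kb or 5 kb of a TSS, at the most upstream TSS, in the stronger 50% of peaks, with the pseudogene included and in members of high uniqueness. The exception, chosen after seeing the data, counted open reading frames in place of genes, which gave 1 of 61 in WT H3K4me3. Most of these values could not have differed. A stricter setting takes part of a count already at 0, and the Cxxc1-deficient H3K4me3 and Cxxc1 lists had no window in the region. Only the 2 kb and 5 kb distances, the pseudogene and the reading frames in WT H3K4me3 could have given another count. The values fixed at 0 are among the 44 that stayed close. Within the stronger 50% of peaks the region kept 6 WT windows, those of the Taf7 peak, and without joining across missing windows it had 6 WT peaks. The share of all protein-coding genes listed at 500 bp, 2 kb and 5 kb was 30.2%, 32.5% and 35.5% in WT H3K4me3, 5.47%, 6.29% and 7.54% in Cxxc1-deficient H3K4me3, and 1.51%, 2.64% and 4.3% in Cxxc1. At the most upstream TSS it was 29.2%, 5.25% and 1.57%, and in the stronger 50% of peaks 18.7%, 3.16% and 1.23%. On the autosomes it was 32.5% in WT. The cause was not tested beyond the construction of each alternative. No paired analysis was possible because every group holds only 1 library. Depth limits the lists: with 10 tags in the lowest autosomal peak, weaker promoters would go unlisted, and unlisted places cannot be ranked.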
